A study of Saccharomyces cerevisiae with 28 samples.

Results

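Expression of 7 genes of the zinc regulon of Saccharomyces cerevisiae was examined in 28 poly(A)+ RNA libraries: ZAP1, ZRT1, ZRT2, ZRT3, ZPS1, ADH4 and IZH1. They are 7 of the 6692 open reading frames (ORFs) with deposited counts. The genes were chosen by symbol for their known place in the regulon, and the group was selected on measured RPKM of ZPS1, which varied strongly between libraries from synthetic complete medium. ADH4 is named with ZPS1 in that choice. Values of ZPS1 and ADH4 in comparisons that involve that medium are therefore descriptions without a test, and the other 5 genes were tested in every comparison.

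All strains were BY4741, a MATa haploid derivative of S288C. Histone H3 was either wild type or the H3H113N form, in which a histidine is replaced by asparagine, alone or with a deletion of CTR1 (dCtr1) or CCS1 (dCcs1). CTR1 encodes the high-affinity copper transporter, and CCS1 the copper chaperone of the superoxide dismutase SOD1. The sources used here do not give the histone gene copies that carry the allele or the number of clones per strain. In rich glucose medium (YPD) there were 2 libraries each of WT, H3H113N, dCtr1 and H3H113N-dCtr1. In rich ethanol and glycerol medium (YPEG) there were 2 each of WT and H3H113N. Cultures in both rich media started at an OD600 of 0.2 and grew for 3 to 4 doublings. In synthetic complete medium (SC) there were 3 libraries each of WT and H3H113N and 2 each of dCcs1 and H3H113N-dCcs1, from cultures that started at an OD600 of 0.05 and doubled 5 times. In SC without lysine (SC-lys) there were 2 each of dCcs1 and H3H113N-dCcs1, started at 0.4 and kept for 24 h, and growth was labelled very slow. The same 2 strains gave 1 library each in SC-lys with 75 µM CuSO4, where growth was labelled exponential for dCcs1 and very slow for H3H113N-dCcs1. The labels do not say whether replicates were separate cultures, so p-values measure only the spread between libraries, which may be technical.

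Total counts ran from 1168159 to 3658424 in the 10 SC libraries and from 2000506 to 6738018 in the 18 others. CTR1 and CCS1 had at most 1 count in the libraries labelled as deleted, against at least 52 and 106 elsewhere. The YPD, SC-lys and SC-lys-Cu libraries were made with 1 kit (KAPA) and the YPEG and SC libraries with another (TruSeq), so kit and medium cannot be told apart between these 2 sets of media. Levels are given as the authors' RPKM, reads per kilobase scaled to the library's counted reads, a measure per length. Fold changes come from edgeR's quasi-likelihood test on the counts with TMM scaling, given as log2 values with their standard errors (SE), and calls were made at adjusted p-values under 0.05.

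Zap1 is the zinc-sensing transcription factor of budding yeast. When cellular zinc is low it activates genes through an 11-base zinc-responsive element in their promoters, its own gene among them. The products bring zinc in through the plasma membrane, release it from the vacuole, or replace or spare zinc-rich proteins. ZRT2 is known to respond in both directions, as Zap1 activates it in mild zinc limitation and represses it in severe limitation.

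The element was searched for upstream of each start codon as ACCTT and AAGGT separated by any 1 base, a pattern that reads the same on both strands, with at most 1 mismatch. All 7 genes held a match within 600 bases, as did 130 of all 6002 protein-coding genes (2.17%). The 600-base window was chosen after the matches were seen, because the ADH4 match lies from -518 to -508, counted from the start codon. Within 500 bases, 6 of the 7 genes and 1.97% of all genes held a match. Only ZRT1 among the 7 held a match without a mismatch, which 0.167% of all genes have. The matches with 20 flanking bases are shown on the coding strand of each gene, to let the elements of the gene with the widest range (ZPS1) be compared with those of the others. The bases are from RefSeq assembly R64, the build of the deposited tables, and capitals mark the element. None of the windows overlaps an annotated gene.
ZPS1 (chrXV:34309-34374, plus strand): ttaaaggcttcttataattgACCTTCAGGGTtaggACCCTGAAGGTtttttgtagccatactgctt
ZRT1 (chrVII:20639-20804, plus strand): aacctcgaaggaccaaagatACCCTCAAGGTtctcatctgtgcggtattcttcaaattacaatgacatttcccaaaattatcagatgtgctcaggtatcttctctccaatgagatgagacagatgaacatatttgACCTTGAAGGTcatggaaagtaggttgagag
ZRT2 (chrXII:404294-404393, minus strand): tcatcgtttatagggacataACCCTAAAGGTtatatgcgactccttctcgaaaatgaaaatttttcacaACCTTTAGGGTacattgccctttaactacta
ZRT3 (chrXI:118618-118668, plus strand): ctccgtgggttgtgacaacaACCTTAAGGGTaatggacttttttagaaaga
ZAP1 (chrX:333187-333237, minus strand): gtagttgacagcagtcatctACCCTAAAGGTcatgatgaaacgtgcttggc
ADH4 (chrVII:14621-14671, plus strand): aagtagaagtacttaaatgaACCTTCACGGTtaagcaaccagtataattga
IZH1 (chrIV:1434487-1434537, plus strand): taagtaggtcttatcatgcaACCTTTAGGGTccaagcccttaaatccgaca

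ZPS1, ZRT1 and ZRT2 held 2 matches each and the other 4 genes 1 each. Counted from 1 at the first base of the element, the mismatches were T4C or A8G in every gene with a mismatch except ADH4, where it was A8C. ZPS1 held an A8G and a T4C match, ZRT2 a T4C and an A8G match, and ZRT1 a T4C match besides the exact one. T4C and A8G are the same change read from opposite strands. The ADH4 match lies between ADH4 and MNT2, which are transcribed away from each other, and is also the match of MNT2, a mannosyltransferase gene. A match is a description of letters and not evidence of binding.

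**Figure D1:**
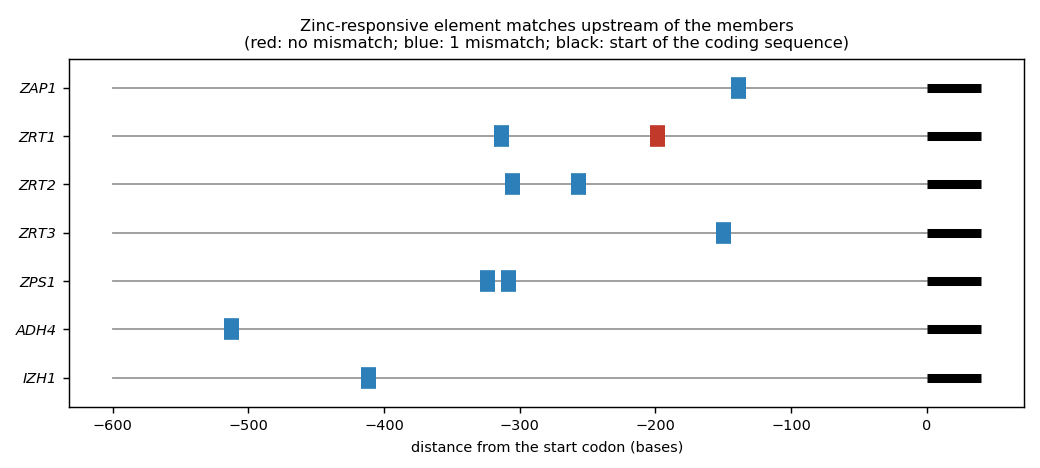
Positions of the element matches upstream of the 7 genes, in bases from the start codon (x axis), 1 line per gene. The exact match is that of ZRT1 (red), all others have 1 mismatch (blue), and the ADH4 match lies farthest from its start codon.

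The regulator ZAP1 (YJL056C, chromosome X, 330431 to 333073, minus strand) was the gene with the lowest median level, 18 RPKM over 28 libraries, with a range from 8.47 to 35.3. Its group means were 21.4 to 23.6 RPKM in the 4 SC groups and 11 and 11.2 in the 2 YPEG groups. WT-SC replicate 3 was the exception among SC libraries at 9.98 RPKM, against 35.3 and 25.6 in WT-SC replicates 1 and 2. The SC and YPEG libraries overlapped only through that library.

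ZRT1 (YGL255W, chromosome VII, 20978 to 22108, plus strand) encodes the high-affinity zinc transporter of the plasma membrane. It ranged 114-fold, from 21.7 RPKM in WT-YPEG replicate 2 to 2462 in dCcs1-SC replicate 1. In SC it was 2428, 1486 and 607 RPKM in the 3 WT libraries and 2462 and 862 in the 2 dCcs1 libraries. With H3H113N it was 795, 385 and 399, and with H3H113N-dCcs1 it was 417 and 95.3. Every SC library but that last one was above all libraries of other media, of which the highest was 236 RPKM in dCcs1-SC-lys-Cu. The YPD groups had 122 and 87.2 (WT), 109 and 69.0 (H3H113N), 73.1 and 77.1 (dCtr1), and 153 and 97.6 RPKM (H3H113N-dCtr1). Levels in YPEG were the lowest, at 29.0 and 21.7 in WT and 53.5 and 51.7 with H3H113N. The SC-lys libraries had 218 and 79.7 RPKM for dCcs1 and 176 and 136 for H3H113N-dCcs1, and the H3H113N-dCcs1 library with copper had 79.8. In the order of replicated group means, dCcs1-SC and WT-SC came first, then H3H113N-SC and H3H113N-dCcs1-SC, and each overlapped the next. H3H113N-dCcs1-SC-lys, dCcs1-SC-lys, H3H113N-dCtr1-YPD, WT-YPD, H3H113N-YPD and dCtr1-YPD followed, again with overlap between neighbours. H3H113N-YPEG and WT-YPEG lay below them and overlapped neither each other nor any other group.

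ZRT2 (YLR130C, chromosome XII, 402794 to 404062, minus strand) encodes the low-affinity transporter. It varied 5.61-fold, from 52.8 to 296 RPKM. Its 2 highest libraries were WT-SC replicate 2 at 296 and dCcs1-SC replicate 2 at 258 RPKM. The other SC libraries lay close together, with 149 and 170 for WT-SC replicates 1 and 3, 164 for dCcs1-SC replicate 1, 143, 161 and 158 for H3H113N-SC, and 150.3 and 153 for H3H113N-dCcs1-SC. All 10 SC libraries were above the 18 others, which reached at most 142 RPKM. The 2 libraries that stood highest for ZRT2 were not those that stood highest for ZPS1 or ADH4.

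ZPS1 (YOL154W, chromosome XV, 34658 to 35407, plus strand) encodes a cell wall protein induced in zinc limitation and at high pH, with a proposed role in zinc uptake. It had the widest range of the 7 genes, 218-fold, from 8.04 RPKM in WT-YPD replicate 2 to 1754 in WT-SC replicate 1. In WT-SC it was 1754, 35.7 and 993 RPKM in replicates 1 to 3, which corresponds to 4813 counts at the highest and 38 at the lowest. In dCcs1-SC it was 826 and 95.1 RPKM. With H3H113N in SC it was 32.1, 20.5 and 42.4, and with H3H113N-dCcs1 16.6 and 25.4 RPKM. Outside SC all 18 libraries lay between 8.04 and 26.3 RPKM, with a median of 16.2. The high libraries were thus WT-SC replicates 1 and 3 and dCcs1-SC replicate 1, dCcs1-SC replicate 2 was intermediate, and WT-SC replicate 2 lay inside the H3H113N-SC range.

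ADH4 (YGL256W, chromosome VII, 15159 to 16307, plus strand) encodes an alcohol dehydrogenase isoenzyme that Zap1 activates, and its coding sequence precedes that of ZRT1 on the same strand. It was 979.7, 83.4 and 499 RPKM in WT-SC replicates 1 to 3 and 404 and 72.3 in dCcs1-SC. With H3H113N in SC it was 88.2, 109 and 89.3, and with H3H113N-dCcs1 76.4 and 89.1 RPKM. Outside SC it varied 2.05-fold, from 37.1 to 76.2 RPKM. The same 3 libraries were high for ADH4 as for ZPS1, but dCcs1-SC replicate 2 was the lowest of the 10 SC libraries for ADH4. WT-SC replicates 2 and 3, which differed in both genes, had similar totals of 1419215 and 1516564 counts.

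**Figure D2:**
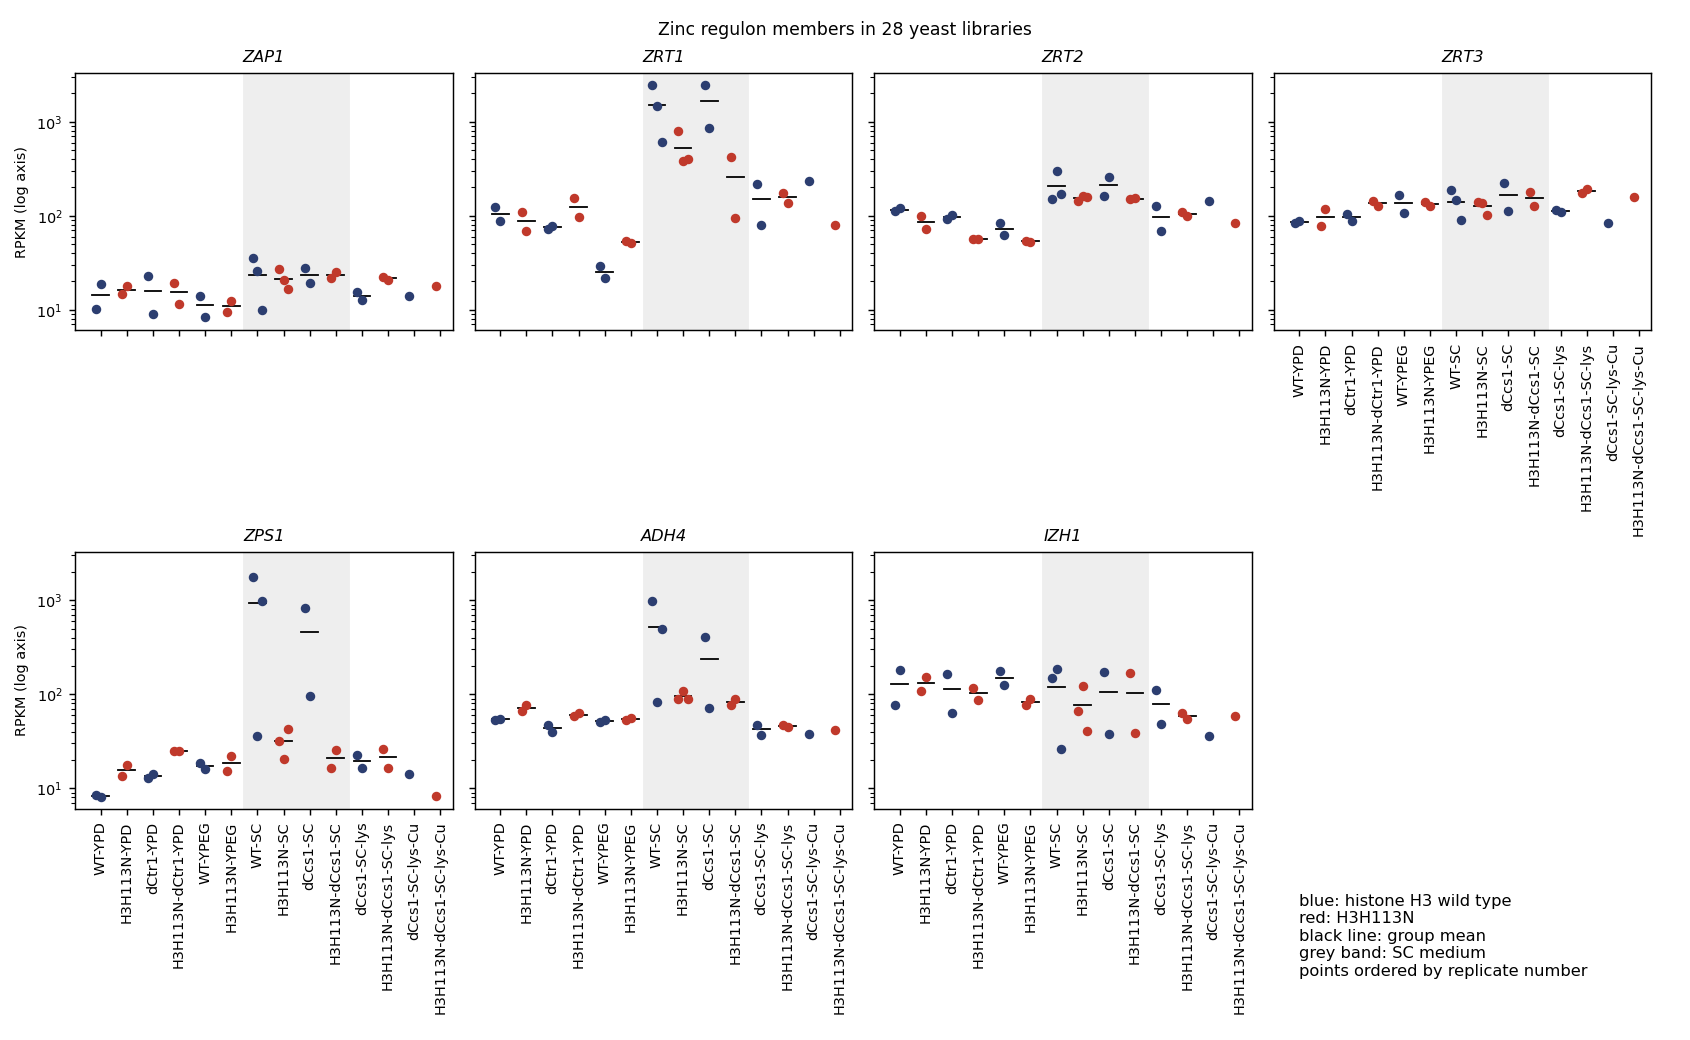
RPKM (log axis) of the 7 genes in all 28 libraries, by group. Points are libraries in order of replicate number, blue without and red with H3H113N, black lines are group means, and the grey band marks SC, where ZPS1 and ADH4 were high in the same 3 of 10 libraries and ZRT1 in 9 of 10 exceeded every library of another medium.

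ZRT3 (YKL175W, chromosome XI, 118793 to 120304, plus strand) encodes the transporter that releases zinc from the vacuole. It varied least, 2.86-fold, from 78.5 to 225 RPKM, and 13 of the 13 pairs of groups next to each other in the order of means overlapped. IZH1 (YDR492W, chromosome IV, 1434924 to 1435874, plus strand) encodes a membrane protein of the progestin and adipoQ receptor family. It varied 7.06-fold, and much of that range lay within groups. In WT-SC it was 149, 186 and 26.3 RPKM, in H3H113N-SC 66.5, 122 and 40.4, in dCcs1-SC 172 and 37.8, and in H3H113N-dCcs1-SC 169 and 38.8. Replicate 3 was the lowest of WT-SC and of H3H113N-SC, and replicate 2 the lowest of both dCcs1 groups.

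The first question of the design was how H3H113N changes expression, and it was asked in 6 settings. Without a replicate block and with all groups in 1 edgeR fit, 0 of the zinc genes tested passed the threshold in these settings. With replicate as a block, ZRT1 was called in SC (3.29% of ORFs called there) and with dCcs1 in SC (4.04%). With the YPEG groups fitted alone ZRT1 and IZH1 were called in YPEG (7.41% of ORFs called there). In the fit of all groups without a block, 0 of 7 were called in YPD, where 1.24% of all tested ORFs were. In YPEG 0 of 7 were called against 1.03% of ORFs, with dCtr1 in YPD 0 of 7 against 2.18%, and with dCcs1 in SC-lys 0 of 7 against 10.7%. In SC 0 of 5 were called against 1.59% of ORFs, and with dCcs1 in SC 0 of 5 against 1.24%. At an unadjusted p under 0.05 edgeR gave 0 genes in YPD, YPEG and SC-lys, 2 in SC, 1 with dCtr1 and 2 with dCcs1 in SC. The shares of all ORFs at that unadjusted p were 12.6% in YPD, 14.7% in YPEG, 15.2% in SC, 12.7% with dCtr1, 13.5% with dCcs1 in SC and 24.0% in SC-lys. The other tools called 1 gene in some of these settings. ZRT2 was called with dCtr1 by DESeq2 (4.44% of ORFs called). ZRT1 was called with dCcs1 in SC by DESeq2 (3.58% of ORFs called) and limma (2.62%). The median log2 fold change of the genes tested was -0.07 in YPD, -0.04 in YPEG, -0.62 in SC, 0.29 with dCtr1, -0.33 with dCcs1 in SC and -0.19 with dCcs1 in SC-lys, while the medians over all tested ORFs lay between -0.05 and 0.01.

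The shares of ORFs called were lower with each chromosome centred in each library, though hardly so in YPD. They were then 0.834% in SC, 0.546% with dCtr1 and 0.258% with dCcs1 in SC. In YPD the share was 1.23%, in YPEG 0.667% and with dCcs1 in SC-lys 7.36%. The counts of zinc genes called in the 6 settings were still 0. The most shifted chromosome in an H3H113N comparison was chromosome III with dCtr1, at 1.01 and 0.97 on the log2 scale in the 2 H3H113N-dCtr1-YPD libraries and -0.16 in both parents. Of the chromosomes that hold the 7 genes, XI (ZRT3) differed by up to 0.36 in these settings, with dCcs1 in SC, and the other 5 by at most 0.15 in size.

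ZRT1 was lower with H3H113N in each of the 5 same-numbered SC pairs. The parent library exceeded the H3H113N library 3.06-, 3.87- and 1.52-fold in replicates 1 to 3 of the WT pair and 5.90- and 9.04-fold in the dCcs1 pair. Against WT the groups overlapped through WT-SC replicate 3, and the log2 fold change was -1.70 (SE 0.589, edgeR adjusted p 0.164), or -2.25 to -1.14 with 1 library left out. The deviations of same-numbered libraries correlated in all 3 pairs, and with replicate as a block the change was -1.64 (SE 0.327, edgeR adjusted p 0.0189). In the dCcs1 background the groups did not overlap, and the change was -2.84 (SE 0.752, edgeR adjusted p 0.0717). There it passed by limma (adjusted p 0.0352) and by DESeq2 (adjusted p 0.00468), and without H3H113N-dCcs1-SC replicate 1 it was -4.48 (edgeR adjusted p 0.0290). It was -1.84 without dCcs1-SC replicate 1 (edgeR adjusted p 0.534), -2.09 without H3H113N-dCcs1-SC replicate 2 (edgeR adjusted p 0.439) and -2.66 with each chromosome centred (edgeR adjusted p 0.247). In YPEG the sign was the opposite, with both H3H113N libraries above both WT libraries, but the change of 1.03 did not pass (SE 0.730, edgeR adjusted p 0.526). With the YPEG groups fitted alone it did, at 1.01 (SE 0.228, edgeR adjusted p 0.0318), as did IZH1 at -0.89 (SE 0.213, edgeR adjusted p 0.0377), in a fit that called 7.41% of ORFs. The difference between the H3H113N effects in YPEG and SC was 2.74 (SE 0.94, edgeR adjusted p 0.93), and the difference between dCcs1 in SC-lys and in SC was 2.60 (SE 1.01, edgeR adjusted p 0.921). Neither difference passed, and 0.0152% and 0.0455% of all ORFs did so in these 2 tests. At an unadjusted p under 0.05 each gave 1 of the 5 genes, ZRT1, where 5.35% and 4.88% of all ORFs had such a p. Of the 5 genes, limma and DESeq2 called 0. The H3H113N effect was also compared with and without dCtr1 in YPD and with and without dCcs1 in SC. Both gave 0 zinc genes by edgeR, limma, DESeq2 and at an unadjusted p under 0.05. By edgeR and limma 0% of ORFs were called, and by DESeq2 0.228% in the dCtr1 test and 0.0607% in the dCcs1 test. At an unadjusted edgeR p under 0.05 the shares of ORFs were 2.26% and 2.41%.

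With TMM scaling ZRT2 had a negative log2 fold change with H3H113N in all 6 settings, and none passed. It was -0.65 in YPD (SE 0.311, edgeR adjusted p 0.401), -0.46 in YPEG (SE 0.314, edgeR adjusted p 0.502) and -0.62 in SC (SE 0.255, edgeR adjusted p 0.244). It was -1.0 with dCtr1 in YPD (SE 0.313, edgeR adjusted p 0.118), -0.67 with dCcs1 in SC (SE 0.312, edgeR adjusted p 0.347) and -0.20 with dCcs1 in SC-lys (SE 0.309, edgeR adjusted p 0.763). The 2 dCtr1 libraries had 93.3 and 102 RPKM and the 2 H3H113N-dCtr1 libraries 56.3 and 56.6, so these groups did not overlap, and DESeq2 gave an adjusted p of 0.0488 there. The settings share no libraries, but the fit shares 1 estimate of spread over all of them.

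For ZPS1 the values within SC pairs differed more than those of ZRT1 in WT replicates 1 and 3 and in dCcs1 replicate 1. They differed less than those of ZRT1 in replicate 2 of both backgrounds. The ZPS1 level of the parent library exceeded that of the H3H113N library 54.7-, 1.74- and 23.4-fold in the WT pair and 49.8- and 3.74-fold in the dCcs1 pair. For ADH4 the corresponding ratios were 11.1, 0.767 and 5.58 in the WT pair and 5.30 and 0.812 in the dCcs1 pair. Replicate 2 of each background thus had an ADH4 level slightly below that of its H3H113N partner. Outside SC, where the test was given, the log2 fold change of ZPS1 with H3H113N was 0.72 in YPD (SE 1.07, edgeR adjusted p 0.858), 0.05 in YPEG (SE 1.07, edgeR adjusted p 0.985), 0.67 with dCtr1 (SE 1.01, edgeR adjusted p 0.912) and -0.18 with dCcs1 in SC-lys (SE 0.998, edgeR adjusted p 0.942). The fit behind these SEs also holds the SC libraries. The H3H113N and parent libraries of ZPS1 did not overlap in YPD (13.6 and 17.7 against 8.50 and 8.04 RPKM) or with dCtr1 (25.2 and 25.2 against 13 and 14.4 RPKM).

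**Figure D3:**
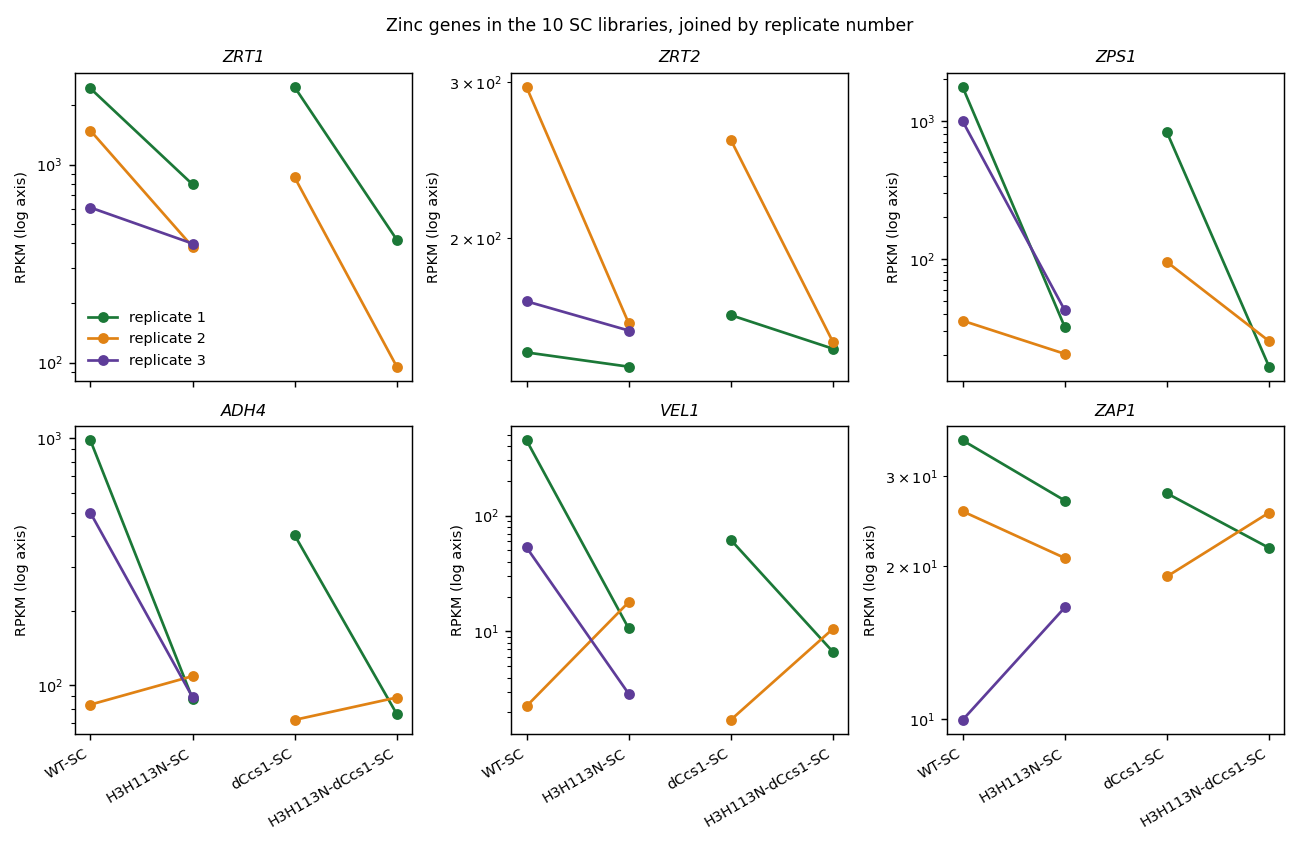
RPKM (log axis) of ZRT1, ZRT2, ZPS1, ADH4, VEL1 and ZAP1 in the 10 SC libraries, with lines joining same-numbered libraries of a parent strain and its H3H113N derivative. ZRT1 fell along all 5 lines, while the lines of ADH4 and VEL1 rose for replicate 2 of both backgrounds.

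The copper gene deletions were compared with WT in 1 medium each. With dCtr1 in YPD 0 of 7 genes were called by edgeR, against 0.0455% of all ORFs, and with dCcs1 in SC 0 of 5, against 0.0152%. At an unadjusted p under 0.05 both counts were also 0, and limma and DESeq2 called 0. The ZRT1 change was -0.51 with dCtr1 (SE 0.707) and 0.18 with dCcs1 (SE 0.637), both with an edgeR adjusted p of 1.

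The largest changes of the zinc genes were between media. YPEG and SC libraries were made with the same kit, but the cultures differed in carbon source, in starting density and in the other medium components. In WT, 2 of 5 genes were called and both were lower in YPEG, where 11.5% of all ORFs were called and 4.72% were lower. ZRT1 changed by -6.10 (SE 0.864, edgeR adjusted p 1.52e-04) and ZRT2 by -1.67 (SE 0.301, edgeR adjusted p 0.00120), and in neither gene did the groups overlap. The ZAP1 value of -1.30 (SE 0.459, edgeR adjusted p 0.0794) did not pass. It passed by DESeq2 (adjusted p 0.0442) and without WT-SC replicate 3, at -1.65 (edgeR adjusted p 0.00960), and was -0.83 without WT-SC replicate 1 (edgeR adjusted p 0.291). The ZRT2 call was lost when the 2 groups were fitted alone (adjusted p 0.133). ZPS1 was 18.5 and 16.1 RPKM in WT-YPEG and ADH4 50.2 and 52.8, below every WT-SC library. In H3H113N cells the same 2 genes were called, among 10.9% of ORFs, and both were lower in YPEG, as were 4.79% of ORFs. ZRT1 changed by -3.36 (SE 0.747, edgeR adjusted p 0.00822) and ZRT2 by -1.52 (SE 0.301, edgeR adjusted p 0.00381), again without overlap. The ZRT1 call was lost without H3H113N-YPEG replicate 1 or 2 (edgeR adjusted p 0.128 and 0.0713) and the ZRT2 call without replicate 1 (edgeR adjusted p 0.0605).

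Against YPD, kit and medium cannot be told apart. In WT, ZRT1 was the 1 gene of 5 called in SC and was higher, by 3.51 (SE 0.749, edgeR adjusted p 0.00755), in a comparison with 8.37% of ORFs called and 3.72% higher. Its WT-SC libraries, from 607 to 2428 RPKM, lay above the WT-YPD libraries at 122 and 87.2. The call was lost without WT-YPD replicate 1 or 2 (edgeR adjusted p 0.0841 and 0.126) and when the 2 groups were fitted alone (adjusted p 0.160). Between YPEG and YPD, where 27.2% of ORFs were called and 13.2% were lower, 2 of 7 genes were lower in YPEG. ZRT1 changed by -2.59 (SE 0.756, edgeR adjusted p 0.0167) and ZRT2 by -1.23 (SE 0.315, edgeR adjusted p 0.00760). The ZRT1 call was lost without WT-YPD replicate 1, WT-YPEG replicate 1 or WT-YPEG replicate 2 (edgeR adjusted p 0.0735, 0.0863 and 0.109). The ZRT2 call was lost without WT-YPD replicate 2 or WT-YPEG replicate 2 (edgeR adjusted p 0.0645 and 0.0742), and with library totals in place of TMM the ZRT2 change was -0.66 (edgeR adjusted p 0.105).

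Between SC-lys and SC in dCcs1 cells, kit, starting density and growth differed along with lysine. There 2 of 5 genes were lower in SC-lys, where 6.04% of ORFs were called and 3.12% were lower. ZRT1 changed by -3.49 (SE 0.773, edgeR adjusted p 0.0129) and ZRT2 by -1.10 (SE 0.313, edgeR adjusted p 0.0439). The ZRT1 call was lost without dCcs1-SC replicate 1, at -2.49 (edgeR adjusted p 0.143), and without dCcs1-SC-lys replicate 2, at -2.94 (edgeR adjusted p 0.148). The ZRT2 call was lost without dCcs1-SC replicate 1 (-1.37), dCcs1-SC replicate 2 (-0.78) or dCcs1-SC-lys replicate 2 (-0.73). In H3H113N-dCcs1 cells 0 of 5 genes were called, by edgeR and by limma and DESeq2, where 13.6% of ORFs were, and 0 passed at an unadjusted p under 0.05. The ZRT1 change there was -0.89 (SE 0.708, edgeR adjusted p 0.453). ZPS1 was 22.8 and 16.3 RPKM in dCcs1-SC-lys and 26.3 and 16.3 in H3H113N-dCcs1-SC-lys, all below both dCcs1-SC libraries. With copper added, the single libraries of dCcs1 and H3H113N-dCcs1 had 14.3 and 8.34 RPKM of ZPS1, 142 and 83.3 of ZRT2 and 84.0 and 160 of ZRT3, with no replicate check.

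**Figure D4:**
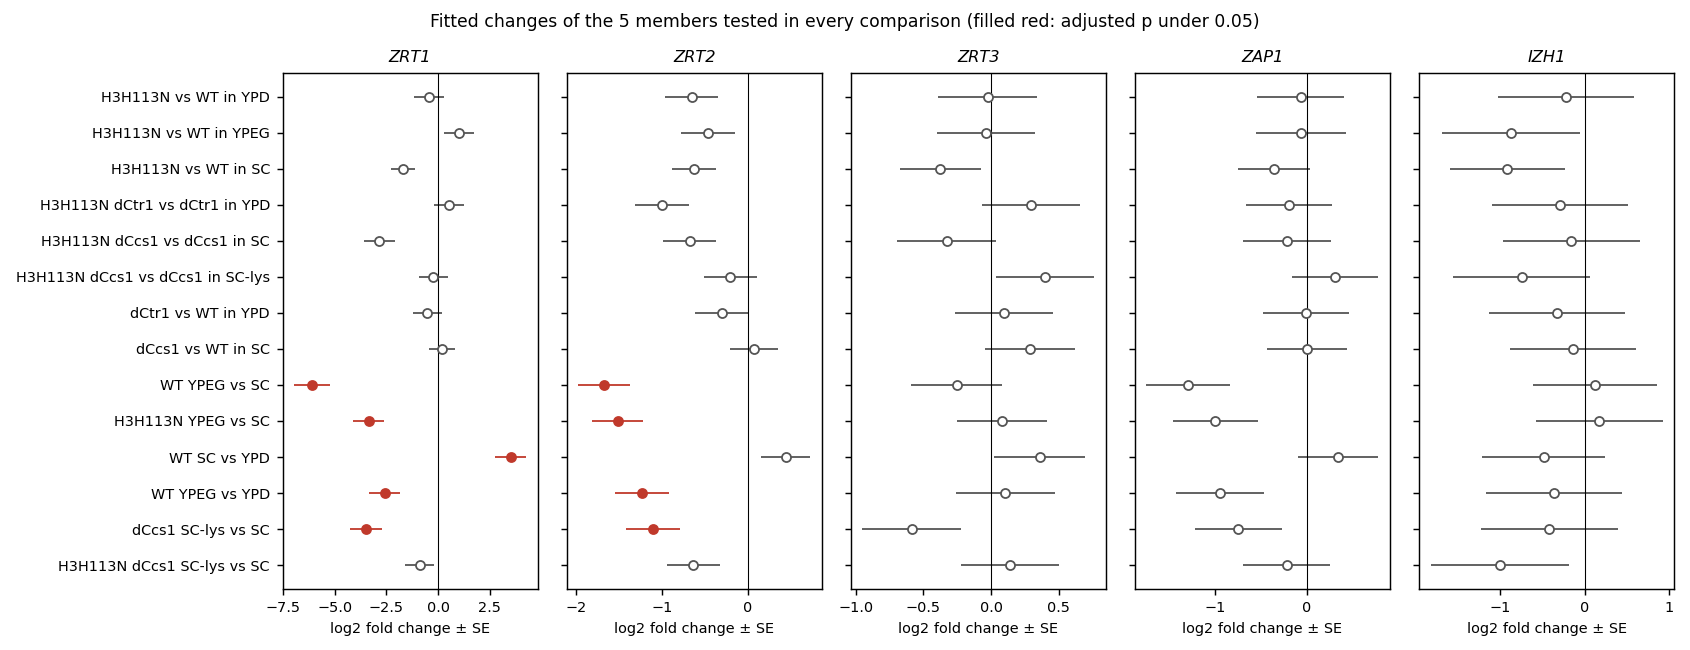
Log2 fold changes with SE (x axis) of the 5 genes tested in every comparison, 1 line per comparison, with filled red points at an edgeR adjusted p under 0.05. Red points stand for ZRT1 in 5 and for ZRT2 in 4 of the comparisons between media.

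Other genes reported as activated by Zap1 were counted from a list of 13 that was written with earlier results of these data known. In the 6 H3H113N comparisons and with dCtr1 or dCcs1 alone, 0 of 13 were called by edgeR. VEL1, which encodes a protein of unknown function, came nearest in SC, at -4.33 (SE 1.15, edgeR adjusted p 0.0660), with ZRC1, the vacuolar zinc transporter, next at -0.58 (edgeR adjusted p 0.257). Of all ORFs, 11.5% were called in WT and 10.9% in H3H113N cells between YPEG and SC. For WT against YPD, 8.37% were called in SC and 27.2% in YPEG. Between SC-lys and SC, 6.04% were called in dCcs1 and 13.6% in H3H113N-dCcs1 cells. In WT, YPEG against SC, the median of the 13 was -0.32 against -0.07 over all ORFs. While 4.72% of all ORFs were lower there, 3 of 13 were lower and 0 higher. These were PIS1, the phosphatidylinositol synthase gene, at -1.72 (SE 0.281, edgeR adjusted p 5.25e-04), IZH2, a relative of IZH1, at -1.84 (SE 0.467, edgeR adjusted p 0.0153), and VEL1 at -5.63 (SE 1.45, edgeR adjusted p 0.0166). Leaving out WT-SC replicate 1 brought the VEL1 change to -2.97 (edgeR adjusted p 0.121), and the IZH2 call was also lost without it (edgeR adjusted p 0.0540). The VEL1 and IZH2 calls were lost without either WT-YPEG library as well. In H3H113N cells PIS1 was the 1 gene called, at -1.25 (SE 0.275, edgeR adjusted p 0.00744), and not without H3H113N-YPEG replicate 1 (edgeR adjusted p 0.151). Between WT in SC and in YPD, PIS1 (0.92, edgeR adjusted p 0.0421) and VEL1 (5.54, edgeR adjusted p 0.0239) were higher in SC, and both calls were lost without WT-YPD replicate 1 or 2. The PIS1 call was also lost without WT-SC replicate 2 or 3 (edgeR adjusted p 0.0840 and 0.136), and VEL1 moved to 2.89 without WT-SC replicate 1 (edgeR adjusted p 0.0891). For WT in YPEG against YPD, PST1 (1.67) and ZRG8 (1.47) were higher and ZRC1 (-0.91), FET4 (-1.09) and PIS1 (-0.80) lower, and each of these calls was lost without at least 1 library. Among these, FET4 encodes the low-affinity iron and zinc transporter. For SC-lys against SC, MNT2 (-0.85) and MCD4 (-1.52), a gene of GPI anchor synthesis, were lower in dCcs1 cells. The same genes were lower in H3H113N-dCcs1 cells (-0.94 and -1.23), where PST1, a cell wall protein gene, was higher (1.52). Each of these 5 calls was also lost without at least 1 library, and MCD4 in dCcs1 cells moved to -0.94 without dCcs1-SC replicate 1.

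Of 5 genes that handle zinc but were not listed as Zap1 targets (COT1, MSC2, YKE4, IZH3 and IZH4), 2 were higher in YPEG than in SC in WT and 0 in H3H113N cells. Of all ORFs, 11.5% and 10.9% were called in either direction in these 2 comparisons. COT1, the vacuolar transporter of cobalt and zinc, was higher in YPEG than in SC in WT, by 2.01 (SE 0.31, edgeR adjusted p 3.09e-04), and by 1.01 without WT-YPEG replicate 1 (its 2 libraries had 341 and 106 RPKM). IZH3, another relative of IZH1, was higher there by 1.40 (SE 0.321, edgeR adjusted p 0.00759), a call lost without WT-YPEG replicate 1 (0.99). YKE4, a zinc transporter of the endoplasmic reticulum, was higher with H3H113N in dCcs1 cells in SC-lys, at 652 and 644 RPKM against 190 and 153 (log2 fold change 1.61, SE 0.254, edgeR adjusted p 9.34e-04). It was 412 RPKM in H3H113N-dCcs1-SC-lys-Cu and 62.8 in dCcs1-SC-lys-Cu, and at most 109 in any other medium. YKE4 was also higher in SC-lys than in SC in dCcs1 cells (1.61, edgeR adjusted p 0.00151; 0.0520 without dCcs1-SC replicate 1 and 0.127 with the 2 groups fitted alone) and in H3H113N-dCcs1 cells (2.63, edgeR adjusted p 1.30e-05). IZH4, also of the IZH family, was lower in SC-lys than in SC in H3H113N-dCcs1 cells (-2.96, edgeR adjusted p 0.00389), a call lost without H3H113N-dCcs1-SC-lys replicate 2 (-2.70). The YKE4 call with H3H113N was lost when the 2 groups were fitted alone (adjusted p 0.0627). Zap1 is reported to repress ADH1 and ADH3, and of these ADH3 was lower with H3H113N in dCcs1 cells in SC-lys, at -1.28 (SE 0.347, edgeR adjusted p 0.0241), a call lost without dCcs1-SC-lys replicate 2 (-0.91) or either H3H113N-dCcs1-SC-lys library. ADH1 was lower in WT in YPEG than in SC, at -1.34 (SE 0.403, edgeR adjusted p 0.0382), and ADH3 was higher in YPEG in H3H113N cells, at 0.98 (SE 0.308, edgeR adjusted p 0.0485). The ADH3 call in YPEG was lost without any 1 of 4 of the 5 libraries. The ADH1 call was lost without WT-YPEG replicate 1 (-0.95) or WT-SC replicate 2 (-1.07). Among 7 other alcohol dehydrogenase genes, ADH1 and ADH3 included, the 1 further call in the H3H113N comparisons was ADH7, higher with dCtr1 in YPD by 1.88 (SE 0.398, edgeR adjusted p 0.0179). ADH7 lies on chromosome III, and after chromosome centring its log2 fold change was 0.73 (edgeR adjusted p 0.593). The ADH7 call was also lost without any 1 of the 4 libraries (edgeR adjusted p 0.0910 to 0.248).

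The pattern of ZPS1 across libraries was compared with that of 6340 other ORFs with a mean of at least 5 RPKM, by Pearson's r on log2(CPM + 1) with TMM scaling. These values are descriptions over libraries that share strains, media and kits, and r over all 28 rests on the few high SC libraries. The SC values of ZPS1 and ADH4 were in view when the genes were chosen, so the rank of ADH4 is not independent of that choice. ADH4 ranked first, with r 0.93 and Spearman's rho 0.55. YOR387C (r 0.83, rho 0.48) and VEL1 (r 0.77, rho 0.27) followed, then ZRT1 (r 0.73, rho 0.65). The next ORFs were RIT1 (r 0.71), SAM2 (r 0.70) and SAM3 (r 0.66), of which SAM2 encodes an S-adenosylmethionine synthetase and SAM3 its transporter. Over the 10 SC libraries alone ADH4 was again first (r 0.95, rho 0.55), ahead of BUG1 (r 0.93), PCT1 (r 0.91), XRN1 (r 0.91), ERG20 (r 0.90) and YOR387C (r 0.90). A high r is not a like range, as ZPS1 ran from 16.6 to 1754 RPKM there. BUG1 ran from 74.4 to 137, PCT1 from 63.9 to 89.4, XRN1 from 81.6 to 122 and ERG20 from 251 to 469 RPKM. ZRT3 (r 0.33), ZAP1 (r 0.33) and IZH1 (r -0.04) resembled ZPS1 little over the 28 libraries. For ZRT1 the first ORF was HNM1, the choline transporter gene (r 0.88, rho 0.82), followed by YLR446W (r 0.83, rho 0.83), PIS1 (r 0.78, rho 0.81), ZRT2 (r 0.77, rho 0.82), SCS3 (r 0.77, rho 0.76) and SAM3 (r 0.76, rho 0.72).

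VEL1 and YOR387C are paralogs, each with 97.7% of its 50-base windows unique in the genome, so few windows of read length are shared exactly. How shared reads were assigned is not given in the sources used here. VEL1 was 446, 2.27 and 53.1 RPKM in WT-SC and 61.8 and 1.73 in dCcs1-SC. With H3H113N it was 10.6, 17.9 and 2.90, and with H3H113N-dCcs1 6.68 and 10.5 RPKM. YOR387C was 570.5, 5.67 and 77.5 RPKM in WT-SC, 49.1 and 13.8 in dCcs1-SC, and between 3.89 and 21.1 with H3H113N in either background. Both were high in the same 3 libraries as ZPS1 and ADH4. Both were also among the ORFs most like ZPS1 over these libraries, so this overlap is not independent of that ranking. In the low libraries VEL1 rested on as few as 2 counts.

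The pattern was not shared by the ORFs beside these genes, apart from VEL1. On chromosome VII the order is VEL1, MNT2, ADH4, ZRT1, FZF1 and HXK2. Over the 10 SC libraries MNT2 stayed between 37.7 and 66.9 RPKM, although it has the same element match as ADH4, FZF1 between 14.6 and 24.7, and HXK2 between 490.4 and 1171. Within that narrow range MNT2 had r 0.67 with ZPS1 over the SC libraries. Beside ZPS1 on chromosome XV, HPF1 ranged from 112 to 635 RPKM with its lowest values in WT-SC replicates 1 and 2, YOL155W-A had at most 2 counts, FRE7 ranged from 4.86 to 12.9 and GRE2 from 40.9 to 128 RPKM.

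Markers of mating type were read as a check of the labelled MATa cells. The 5 MATa markers (MFA1, MFA2, STE2, BAR1 and STE6) summed to 190 to 2112 RPKM with H3H113N and 269 to 1896 without it. The 4 MATalpha markers (MF(ALPHA)1, MF(ALPHA)2, STE3 and SAG1) summed to 52.8 to 111 RPKM with H3H113N and 23.9 to 62.3 without it. MF(ALPHA)1, the defining pheromone gene, was at 0 in 4 libraries, all without H3H113N. It was 17.1 to 21.6 RPKM in H3H113N-YPEG against 1.73 to 3.05 in WT-YPEG, and 9.35 to 18.9 in H3H113N-SC against 0 to 2.83 in WT-SC, on at most 49 counts, and was not called in any of the 6 settings. At least 1 of the 4 was called higher with H3H113N in 3 of the 6 settings. STE3 was higher with H3H113N in YPD (1.99, edgeR adjusted p 0.00349), in SC (1.47, edgeR adjusted p 0.00750) and with dCtr1 (1.48, edgeR adjusted p 0.0136), and SAG1 in YPD (1.05, edgeR adjusted p 0.0254). Of the MATa markers, 3 of 5 were lower in YPEG than in SC in WT, where 4.72% of ORFs were, and 2 of 5 in H3H113N cells, where 4.79% were. In WT, 4 of 5 were lower in YPEG than in YPD, where 13.2% of ORFs were. BAR1 was lower with H3H113N in dCcs1 cells in SC-lys (-2.01, edgeR adjusted p 0.0198), and in H3H113N-dCcs1 cells in SC-lys against SC (-2.64, edgeR adjusted p 0.00361). The part of these markers in the zinc gene values was not tested.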

How the data were processed

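Poly(A)+ RNA was sequenced as single 50-nt reads, and the strand was not used, per the labels' protocols. TopHat2 2.0.9 and builds R64 and sacCer3 are named in the submitters' processing notes, and the counting tool is not given in the sources used here. The authors deposited raw counts and RPKM for 6692 ORFs, and RPKM recomputed from the counts and ORF lengths differed from the deposited RPKM by a relative 3.82e-09 at most. None of the 7 genes overlaps another annotated gene, and all of their 50-base windows are unique in R64.

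Counts were tested with edgeR 4.0.16 (glmQLFit and glmQLFTest, TMM) in R 4.3.3. The fit held all 26 libraries of the 12 replicated groups, 1 mean per group, and the 6592 ORFs with a mean of at least 1 RPKM. It had a common biological coefficient of variation of 29.5%. P-values were adjusted by Benjamini-Hochberg within each of 14 comparisons and 4 interactions, with a threshold of 0.05. SEs were taken from the log2 fold change and the root of its F statistic. The 2 copper libraries stayed outside the fit. Alternatives used DESeq2 1.42.0, limma 3.58.1 on log2(RPKM + 1) of the authors' deposited values, other scalings and filters, each chromosome centred, only the groups compared, a replicate block, and each replicate left out. The scripts were tested on simulated counts. RPKM is scaled to library totals and fold changes to TMM, so small differences can differ in sign between them.

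For H3H113N against WT in SC, deviations of same-numbered libraries correlated at 0.60, 0.48 and 0.79. The labels' replicate numbers were therefore taken to pair these libraries in the fit with a replicate block. The main fit, which gave 0 of 5 called in SC, did not use that pairing. That block was set per medium across all strains, so the other strain comparisons, with 2 pairs each, were also blocked by number there. In SC it tied WT to dCcs1 libraries too, whose deviations correlated at 0.64 in replicate 1 and -0.50 in replicate 2. Pairing in these other comparisons rests on the numbers alone, so their ratios by replicate number only follow the labels.

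The 7 genes, the lists and the tests were chosen with earlier results of these data known. The text names the 7 genes, the listed genes that were called, the 5 other ORFs most like ZPS1 or ZRT1, and the 2 ORFs on either side. YOR387C and VEL1 sequences were compared after their values were seen.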

Additional observations from a re-analysis of the deposited data

Results flagged for a closer look

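In some pairs of settings H3H113N moved a gene one way in every library of one setting and the opposite way in every library of the other. These contrasts are given as log2 ratios of mean TMM-scaled CPM, and the differences between settings were not tested. The groups named here hold 2 libraries each, so such a separation can arise by chance. The share of all ORFs that meet the same rule is not given, so these cases cannot be set against a background. The SC values of ZPS1 were also in view when the genes were chosen. ZPS1 was higher with H3H113N in YPD (0.71) and with dCtr1 in YPD (0.67), and lower with dCcs1 in SC (-4.71). ZRT1 was higher with H3H113N in YPEG (1.04) and with dCtr1 in YPD (0.52), and lower with dCcs1 in SC (-2.84). The 2 dCcs1-SC libraries had 826 and 95.1 RPKM of ZPS1.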

How the results depend on the processing

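Of the 47 single-gene results compared with the alternatives, 0 reversed in sign. They were zinc genes at an unadjusted edgeR p under 0.05 and listed genes that were called. Smaller changes were not part of that comparison. Of the 18 counts of called zinc genes, 10 were within 1.5 times under each of the 8 to 10 alternatives run on them that kept every library, and 9 of them also without each library in turn. With only the groups in the contrast fitted, the count was 2 for H3H113N against WT in YPEG (ZRT1 and IZH1, with 487 ORFs called against 68), 1 for WT in YPEG against SC, and 0 for WT in SC against YPD and for SC-lys against SC in dCcs1. With the replicate block it was 1 for H3H113N against WT in SC (3.29% of ORFs called) and 1 with dCcs1 in SC (4.04%). With the block within each strain pair, chosen after seeing the data, it was 1 in both (6.3% and 6.75%) and 1 with dCtr1 (7.66%). DESeq2 gave 1 with dCtr1 and 1 with dCcs1 in SC, and limma 1 with dCcs1 in SC and 1 for WT in YPEG against YPD. Library totals gave 1 with dCcs1 in SC, 1 for WT in YPEG against YPD and 1 for SC-lys against SC in dCcs1. Leaving out 1 library gave 0 to 1 with dCcs1 in SC, 0 to 2 for H3H113N cells in YPEG against SC, 0 to 1 for WT in SC against YPD, 0 to 1 for WT in YPEG against YPD and 0 to 2 for SC-lys against SC in dCcs1. Where a group of 2 lost 1, the lone library is assumed to vary like the other groups. The cause of these shifts was not tested. No paired analysis was possible between media because the numbers in different media mark no shared sample. In YPD, dCtr1 and WT libraries correlated at -0.51, and crossing their numbers gave 0 zinc genes and 9 ORFs, against 5 ORFs with the labelled numbers. Library totals moved the median of all ORFs by more than 0.1 in 9 of 18 comparisons, by at most 0.58, so H3H113N changes in YPD on that scale are relative to a median of 0.22. The precision of a single value is limited by counts in SC, where ZPS1 fell to 18 counts and VEL1 to 2.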
